A study of Papio anubis with 60 samples.

Results

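Peaks of H3K4me3 and of H3K9me3 were compared within embryonic stem cells (ESC) of the olive baboon, Papio anubis, on chromosomes 1 to 20. The members are all peaks that lie on these chromosomes in the ESC lists of both marks, 305565 peaks of H3K4me3 and 260371 of H3K9me3. Together these are 565936 of the 2116963 peaks in the 8 lists of the series, which maps 4 histone marks in ESC and in induced pluripotent stem cells (iPSC). The ESC libraries came from the lines B4 and B15, with 3 replicates of each line for each mark, grown on feeder cells under the same culture conditions. The iPSC lines, which enter here as a comparison, were 160-2 and M14939#3. Each library was made from 50000 cells by chromatin immunoprecipitation after digestion with micrococcal nuclease, which cuts between nucleosomes. ESC lists of H3K27ac and H3K27me3, made from other libraries of the same lines, served as further readouts.

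H3K4me3 is trimethylated lysine 4 of histone H3 and is deposited around the start sites of active and poised genes, largely where CpG-rich DNA recruits its methyltransferases. H3K9me3 marks heterochromatin, where it is bound by HP1 proteins, and in pluripotent cells it also covers many transposable elements, to which zinc finger proteins bring the methyltransferase SETDB1 through the corepressor TRIM28. H3K27ac is an acetyl mark of active promoters and enhancers, and H3K27me3 is laid down by Polycomb complexes. H3K4me3 and H3K9me3 are generally described as marks of opposite states, so the question put to these lists was where their peaks nevertheless overlap.

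On the autosomes, H3K4me3 peaks covered 135 Mb (5.205% of the sequence) and H3K9me3 peaks 219.5 Mb (8.46%). H3K4me3 peaks had a median width of 276 bp and reached 15176 bp. H3K9me3 peaks had a median width of 526 bp and reached 73830 bp. There is 1 list per mark, pooled over both lines, so no list has a replicate, no p-value is given, and the spread between lines or cultures is unknown, as is the depth of the libraries. Intervals are 95% Wilson intervals and cover counting error only. Since wide peaks touch more of anything, the shares of overlap and of H3K27ac in the main classes are set beside their level after circular shifts, in which the other list was moved along each chromosome by 100 evenly spaced distances. Shares printed without such a level, those in iPSC among them, were not compared with shifts. A pooled list also cannot tell whether the marks of an overlap lay in the same cells or on the same chromosome copy.

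Narrow H3K4me3 peaks lay on H3K9me3 more often than in the shifted lists, and wide ones less often. Of all H3K4me3 peaks, 57358 (18.8%, interval 18.6 to 18.9) overlapped an H3K9me3 peak by at least 1 bp, against a mean of 12.6% in the shifts, whose highest value was 12.9%. Among peaks under 200 bp wide the share was 21.5% (21.2 to 21.7) against 10.1% when shifted. Among those of 200 to 500 bp (a class holds its lower limit and not its upper) it was 19.2% against 11.6%. At 500 to 1000 bp the observed share of 14.9% lay within the range of the shifts, 14.6 to 15.5%. At 1000 to 2000 bp it fell below them, with 11.9% (11.4 to 12.4) against 20.7%, and at 2000 to 5000 bp it was 15.0% (14.2 to 15.9) against 29.04%. The 252 peaks of 5000 bp or more overlapped H3K9me3 in 35.3% (29.7 to 41.4), against 46.9% when shifted (lowest 40.9%).

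**Figure D1:**
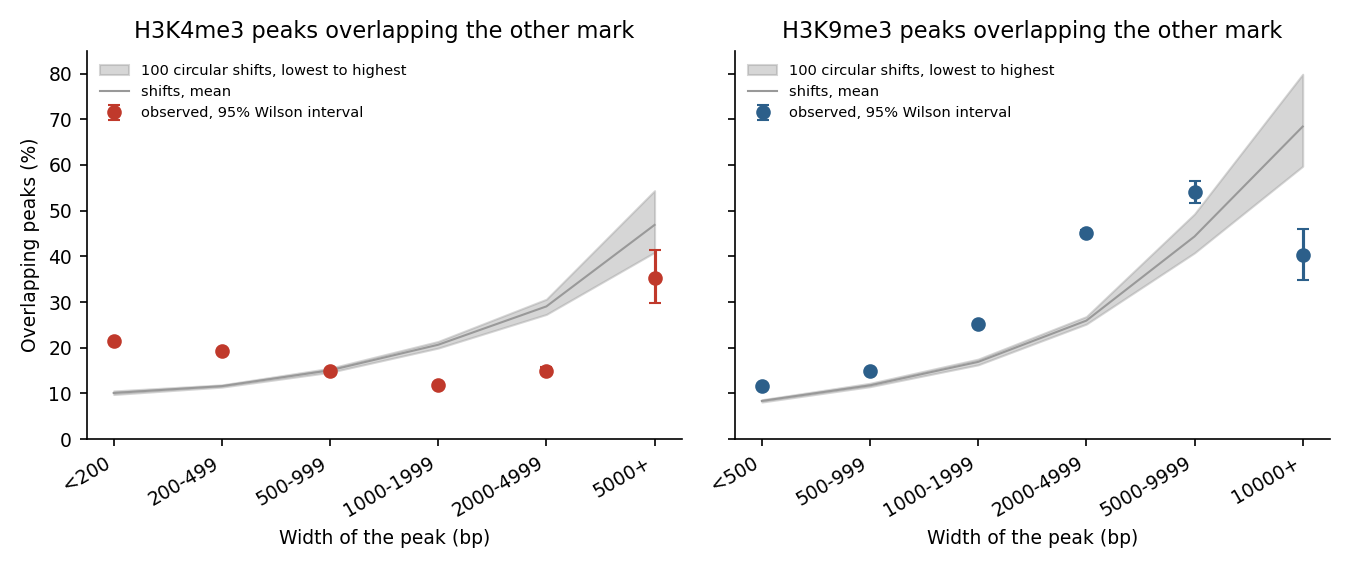
Percent of ESC H3K4me3 peaks (left) and H3K9me3 peaks (right) that overlap the other mark, by width of the peak in bp. Points are observed shares with 95% Wilson intervals, and the grey line and band are the mean and range of 100 circular shifts. H3K4me3 peaks under 500 bp lie above the band and those of 1000 bp or more below it, while H3K9me3 peaks lie above it in the classes below 10000 bp and below it at 10000 bp or more.

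Counted in base pairs, which removes the effect of room, the turn was steeper. H3K9me3 covered 20.01% of the sequence in H3K4me3 peaks under 200 bp, 2.36 times its shifted level of 8.48%. It covered 16.0% at 200 to 500 bp (1.88 times), 9.72% at 500 to 1000 bp (1.14 times), 4.34% at 1000 to 2000 bp (0.498 times) and 3.13% at 2000 to 5000 bp (0.363 times). Over all H3K4me3 peaks 10.9% of the base pairs lay in H3K9me3, 1.28 times the shifted level. Of the 14.8 Mb that both marks shared, peaks under 500 bp gave 68.1% and peaks of 2000 bp or more gave 4.41%.

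Strength, the −log10 of the authors' q for a peak, went the same way as width. When H3K4me3 peaks were ranked into 5 equal groups by −log10 q, the weakest group overlapped H3K9me3 in 24.3% (23.9 to 24.6) and the strongest in 11.6% (11.3 to 11.8). Relative to the shifts in base pairs, the 5 groups stood at 2.61, 2.23, 1.89, 1.45 and 0.521 times from weakest to strongest. Strong peaks are also wide, with a median of 776 bp in the strongest group and 212 bp in the weakest. Within single width classes the order by strength persisted. At 200 to 500 bp the ratio was 2.63 in the weakest and 0.966 in the strongest group, and at 500 to 1000 bp it was 2.60 and 0.738. Width carried little within the weakest group, where peaks under 200 bp, of 200 to 500 bp and of 500 to 1000 bp had ratios of 2.58, 2.63 and 2.60. In stronger groups the ratio still fell with width over these 3 classes. The same 3 classes had 2.32, 1.84 and 1.59 in the middle group, and 2.12, 1.49 and 1.29 in the next. In the strongest group they had 1.52, 0.966 and 0.738, and peaks of 1000 to 2000 bp 0.404. At larger widths the fall did not hold throughout. In the group next to the strongest, peaks of 1000 to 2000 bp stood at 1.15. The 65 peaks of 2000 to 5000 bp there stood at 2.63, with 22.4% covered against 3.36 to 15.5% in the shifts. In the strongest group the ratio was 0.343 at 2000 to 5000 bp and 0.559 at 5000 bp or more. The total changed with the threshold. With −log10 q of at least 10 for H3K4me3 and at least 3 for H3K9me3, both applied together, the ratio over all peaks turned from 1.28 to 0.725. Peaks under 2 kb then stood at 0.849 times and those of 2 kb or more at 0.310 times.

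The overlap of narrow peaks was local. For H3K4me3 peaks under 2 kb, 12.3% of the base pairs lay in H3K9me3 in place. After H3K9me3 was displaced by 0.5 kb to either side, 8.70% did, and after 2 kb 7.91%, below the shifted mean of 8.54%. Peaks of 2 kb or more showed the opposite pattern, with 3.27% in place. Displacement left it at 3.16% at 0.5 kb and then raised it, to 3.73% at 2 kb, 5.34% at 10 kb, 6.92% at 50 kb and 8.18% at 1000 kb. At 500 kb it was 7.88%, still below the lowest single shift of 7.94%. Narrow peaks were below their lowest shift, 8.34%, from 1 kb (8.19%) to 100 kb (8.24%). Both widths thus had less H3K9me3 around them than the shifts gave, and they differed in place, where the narrow peaks lay above and the wide peaks below that level.

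**Figure D2:**
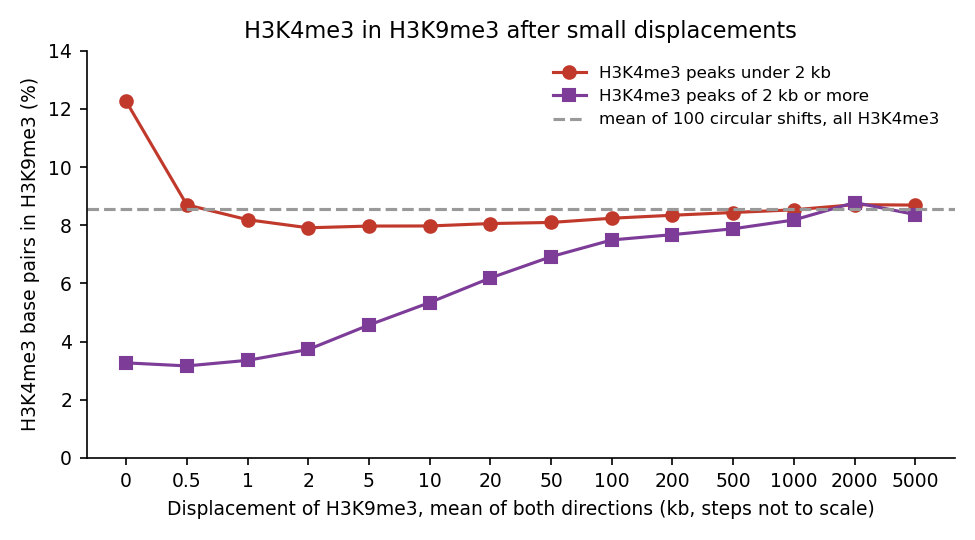
Percent of H3K4me3 base pairs that lie in H3K9me3 (vertical) after H3K9me3 is displaced by the distance on the horizontal axis (kb, mean of both directions), for H3K4me3 peaks under 2 kb and of 2 kb or more. The narrow peaks drop from 12.3% to 8.70% at 0.5 kb, and the wide peaks climb from 3.27% towards the dashed shifted level of 8.56%.

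Seen from H3K9me3, the share of peaks with H3K4me3 was highest at 5000 to 10000 bp and in the strongest group. Of all H3K9me3 peaks, 45697 (17.55%, 17.4 to 17.7) held H3K4me3, against 12.35% when H3K4me3 was shifted. The share rose with width from 11.5% under 500 bp (8.35% shifted) to 45.2% at 2000 to 5000 bp (25.9%) and 54.1% at 5000 to 10000 bp (44.35%). At 10000 bp or more it was 40.3% (34.7 to 46.1, 114 of 283 peaks), below the 68.4% of the shifts, whose lowest value was 59.7%. In base pairs the narrowest class stood highest, at 1.53 times the shifted level under 500 bp, 1.19, 1.23, 1.34 and 1.105 times in the next 4 classes and 0.729 times at 10000 bp or more. The 5 groups by −log10 q, from weakest to strongest, stood at 1.305, 1.155, 0.999, 0.928 and 1.72 times the shifted level in base pairs, so that the strongest group alone departed upwards from a falling series.

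Strong and weaker H3K9me3 peaks differed most at larger widths. In the strongest of the 5 groups, 56.4% (55.2 to 57.6) of the peaks of 2 to 3 kb held H3K4me3, against 23.5% when shifted. The share was 69.04% (66.4 to 71.55) at 4 to 5 kb, against 33.8%, and 69.6% (62.05 to 76.3) at 7 to 8 kb, against 48.04%. In the other 4 groups the share at 2 to 3 kb was 26.0%, against 23.4% in the shifts (highest 25.15%). There it lay below the shifts from 5 kb up, with 23.9% (19.15 to 29.5) at 5 to 6 kb against 41.2%. At 10 kb or more, 11 of 94 of these weaker peaks held H3K4me3 (11.7%, 6.66 to 19.75), against 68.2% when shifted. The strongest peaks lost their excess at these widths too, with 53.75% at 9 to 10 kb against 53.0% when shifted. At 10 kb or more 54.5% of them held H3K4me3 (47.4 to 61.4), below the 68.5% of the shifts and their lowest value of 57.1%.

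**Figure D3:**
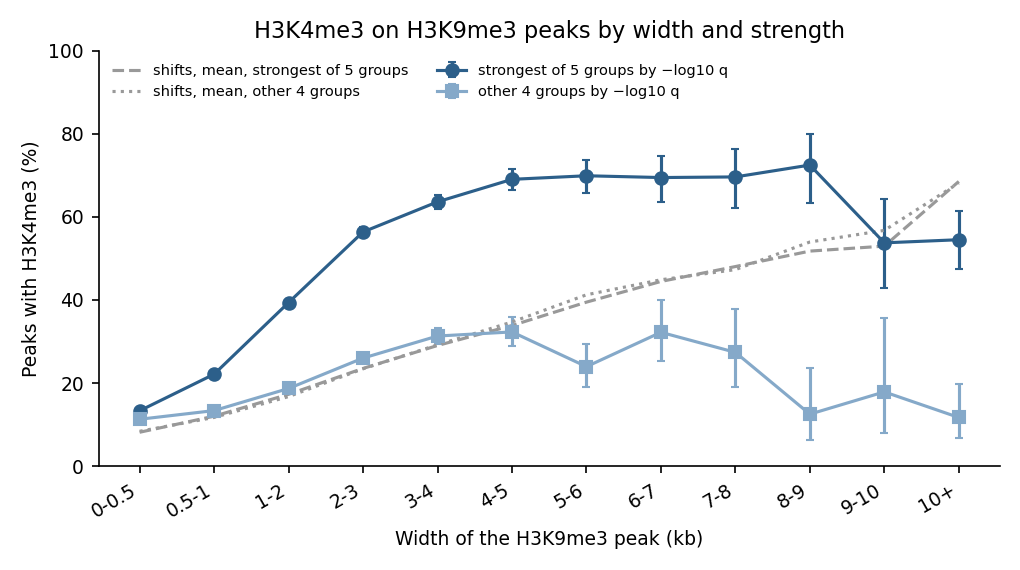
Percent of ESC H3K9me3 peaks that hold H3K4me3 (vertical) by width in kb (horizontal), for the strongest of 5 groups by −log10 q and for the other 4 groups, with 95% Wilson intervals. Grey lines are the means of 100 circular shifts. The strongest peaks stand above their shifted level up to 8 to 9 kb (72.5%), and the others lie below its mean from 4 to 5 kb on.

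The strongest H3K9me3 peaks of 2 to 10 kb numbered 12034, and 7309 of them (60.7%) held H3K4me3. In 3139 there were 2 or more H3K4me3 peaks, and the highest number was 11. The share varied little over the chromosomes, 60.48% ± 2.935 (SD, n = 20 chromosomes), from 53.1% on chromosome 20 to 65.9% on chromosome 12. The 11657 H3K4me3 peaks that lay wholly inside them were narrow and of modest strength, with a median width of 230 bp, a median fold enrichment of 3.04 (the authors' value for each peak) and a median −log10 q of 5.95. Of these, 5.94% overlapped H3K27ac, against 15.2% of all H3K4me3 peaks wholly inside any H3K9me3 peak. No shifted level was computed for the 11657. For all those wholly inside it was 7.56%. An iPSC H3K4me3 peak overlapped 37.1% of the 11657 and 39.4% of all those wholly inside.

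Among all overlapping H3K4me3 peaks, a majority lay wholly inside an H3K9me3 peak, which under the strict threshold above became 48.9%. Of the 57358, 33753 (58.85%, 58.4 to 59.3) were covered in full, 18567 (32.4%) crossed 1 or more ends, and 5038 (8.78%) spanned a whole H3K9me3 peak. In the shifts 43.1% of the overlapping peaks lay inside and 46.6% at an edge. As shares of all H3K4me3 peaks, those inside were 2.03 times as frequent as when shifted, and those at an edge 1.04 times. Under 200 bp the excess held for both positions, 2.31 times inside and 1.67 times at an edge. At 500 to 1000 bp peaks inside were 1.28 times as frequent and peaks at an edge 0.760 times. At 1000 to 2000 bp both positions were rarer than in the shifts, 0.504 times inside and 0.545 times at an edge. At 2000 to 5000 bp, 26 of 1017 overlapping peaks lay inside (2.56%, 1.75 to 3.72), 325 crossed an end and 666 spanned a whole H3K9me3 peak, and all 3 positions were rarer than in the shifts, at 0.445, 0.444 and 0.566 times. At 5000 bp or more 3 of 252 peaks lay inside (1.19%), above the shifted mean of 0.151% and its highest value of 0.794%, a count too small to place more closely. The H3K9me3 peaks that touched H3K4me3 of 2 kb or more numbered 1260, with a median width of 462.5 bp and a median −log10 q of 2.805, not far from the 526 bp and 3.21 of all H3K9me3 peaks, and 87.4% of them overlapped H3K27me3.

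Within single H3K9me3 peaks, H3K4me3 midpoints did not gather at the ends. In peaks of 2000 to 5000 bp, 13668 H3K4me3 midpoints lay at a median of 859 bp from the nearer end. When the stretch from end to middle was divided into 4 equal zones, 19.3% of these midpoints fell in the outermost and 33.2% in the innermost zone. In peaks of 10000 bp or more the shares were 17.09% and 29.3% over 509 midpoints. The 500 to 1000 bp class had the reverse, 26.06% outermost and 19.5% innermost. These shares carry no shifted level. H3K4me3 peaks were placed by their midpoint alone and did not have to lie wholly inside. Of those counted, 92.7% did at 2000 to 5000 bp and 55.7% at 500 to 1000 bp.

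Larger H3K9me3 domains, made by joining peaks within 3 kb and keeping those of at least 10 kb, gave a different view of the edge. There were 4824 such domains with a median of 13.02 kb, of which H3K9me3 peaks filled 58.8%, and 3615 (74.9%) held H3K4me3. H3K4me3 covered 5.42% of their outer 1 kb and 4.40% of the interior, a ratio of 1.23, above the 0.876 to 1.02 of the shifts. Over single chromosomes the ratio varied by more than this excess, and 1 SD reached from 0.874 to 1.59. By domain width it was 1.11 at 10 to 20 kb (highest shift 1.10), 1.02 at 20 to 50 kb and 1.36 at 50 kb or more, and the last 2 lay within the range of their shifts. The 155 domains of 50 kb or more held little H3K4me3, 3.03% at the edge and 2.23% in the interior, and weigh mostly on the pooled interior. The ends of a domain are by construction ends of H3K9me3 peaks. When only the sequence inside H3K9me3 peaks was counted the ratio was 1.16. With peaks joined within 1 kb it was 1.065, and within 10 kb 1.185. An edge of 500 bp gave 1.38 and an edge of 2000 bp 1.17. The ratios of these variants were not compared with shifts. Within the domains H3K4me3 covered 5.77% of the H3K9me3 peaks and 2.71% of the gaps between them, against 4.805% in the 10 kb on either side and 5.205% of the autosomes. H3K4me3 was thus denser on the H3K9me3 peaks of a domain than in its gaps.

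At the domain ends H3K4me3 changed within 1 kb. In the last 500 bp outside an end it covered 3.05% of the sequence, below the 4.74% that was the lowest shifted value, and in the first 500 bp inside it covered 6.08%, above the highest, 5.67%. Further in, coverage lay between 4.60% and 5.07%, below the shifted means of 5.26 to 5.29%. Some of these bins lay below their lowest shifted value and others within the range of the shifts. H3K9me3 peaks filled 0.102% of the last 500 bp outside, 85.9% of the first 500 bp inside and 46.4 to 53.1% of the bins further in. The step at the end is thus also a step from gap to H3K9me3 peak, and the 2 cannot be told apart here. H3K27ac had the same notch and step, 1.94% in the last 500 bp outside and 3.603% in the first 500 bp inside, both below its shifted means of 3.918% and 3.941%. Beyond 0.5 kb inside it dropped to between 1.44% and 1.75%, against shifted means of 3.899 to 3.994%. With all domains pooled and over the first 5 kb, H3K4me3 therefore continued close to its outside level while H3K27ac did not. By domain width, H3K4me3 covered 4.77% of the 10 kb on either side and 4.99% of the interior at 10 to 20 kb. At 20 to 50 kb these values were 5.29% and 5.13%. In domains of 50 kb or more they were 3.76% and 2.23%, so there H3K4me3 was lower inside.

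**Figure D4:**
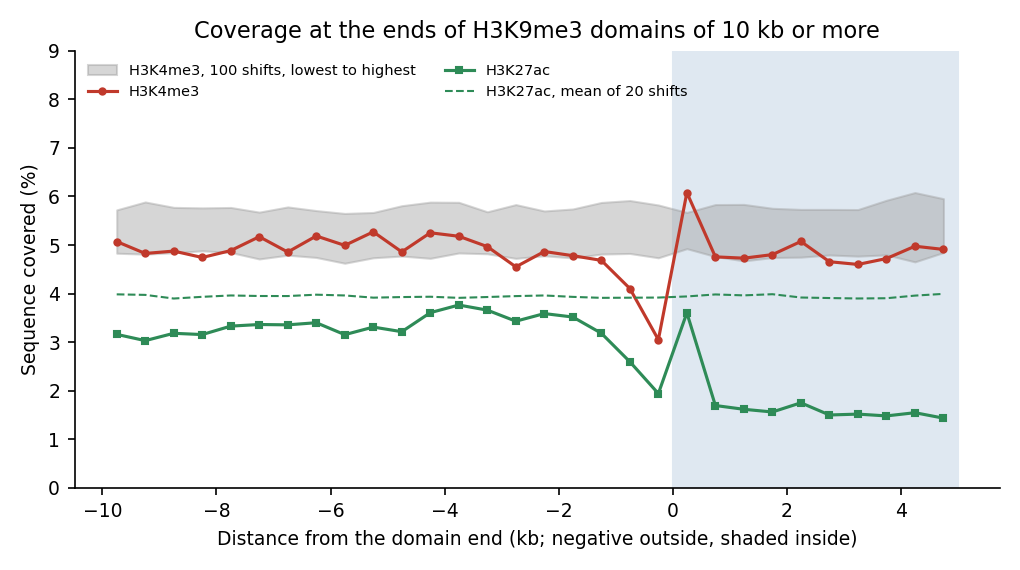
Percent of sequence covered by H3K4me3 and by H3K27ac (vertical) in bins of 500 bp around the ends of 4824 H3K9me3 domains of at least 10 kb, from 10 kb outside (negative) to 5 kb inside (shaded). The grey band is the range of H3K4me3 in 100 circular shifts and the dashed line the mean of H3K27ac over 20 of these shifts. H3K4me3 dips to 3.05% just outside and reaches 6.08% just inside, and H3K27ac stays at or below 1.75% beyond the first bin inside.

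H3K27ac was less frequent on H3K4me3 that overlapped H3K9me3. It lay on 16054 of the 57358 overlapping H3K4me3 peaks (28.0%, 27.6 to 28.4) and on 126389 of the 248207 others (50.9%, 50.7 to 51.1), a difference of 22.9 percentage points (22.5 to 23.35). Shifted H3K27ac gave 8.94% and 9.81%, so both classes held more than the shifted level, 3.13 and 5.19 times. Position mattered within the overlapping class. Peaks wholly inside H3K9me3 bore H3K27ac in 15.2% (14.9 to 15.6), 2.01 times their shifted level, those at an edge in 43.95% (43.2 to 44.7), 4.55 times, and those around a whole H3K9me3 peak in 54.7% (53.3 to 56.05), 3.51 times. The peaks around a whole H3K9me3 peak were wide, with a median of 603 bp. Relative to the shifts they stood below those at an edge when all widths were pooled, but not at each width. Under 200 bp the ratios were 7.58 around and 5.24 at an edge, at 200 to 500 bp 6.17 and 5.23, and at 500 to 1000 bp 4.84 and 4.495. At 1000 to 2000 bp they were 2.925 and 2.98, and at 2000 to 5000 bp 1.175 and 1.40. Of the peaks off H3K9me3, those under 1 kb from it had 45.4% and those 20 kb or more away 55.3%.

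The difference was present at each width and strength. By width it was 20.98 points under 200 bp, 23.7 at 200 to 500 bp, 15.1 at 500 to 1000 bp, 9.27 at 1000 to 2000 bp, 27.8 at 2000 to 5000 bp and 20.4 (7.77 to 31.6) at 5000 bp or more. By strength it narrowed from 23.75 points in the weakest group to 9.13 in the strongest. Peaks off H3K9me3 had the higher share in 20 of 20 combinations of width and strength with at least 50 peaks in both classes, and weighted over these the shares were 28.0% on and 48.1% off. The size differed within the strongest group. Under 200 bp its shares were 40.9% on (35.4 to 46.6) and 43.6% off (41.3 to 46.0), with overlapping intervals. At 500 to 1000 bp they were 62.5% and 66.1%, and at 2000 to 5000 bp 38.6% and 66.25%. At 2000 to 5000 bp, 38.5% of the peaks on H3K9me3 bore H3K27ac, 1.23 times the shifted 31.4%, and 89.09% of them overlapped H3K27me3, against 64.6% of those off H3K9me3. The part of H3K27me3 in the lower H3K27ac of these wide peaks was not tested.

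**Figure D5:**
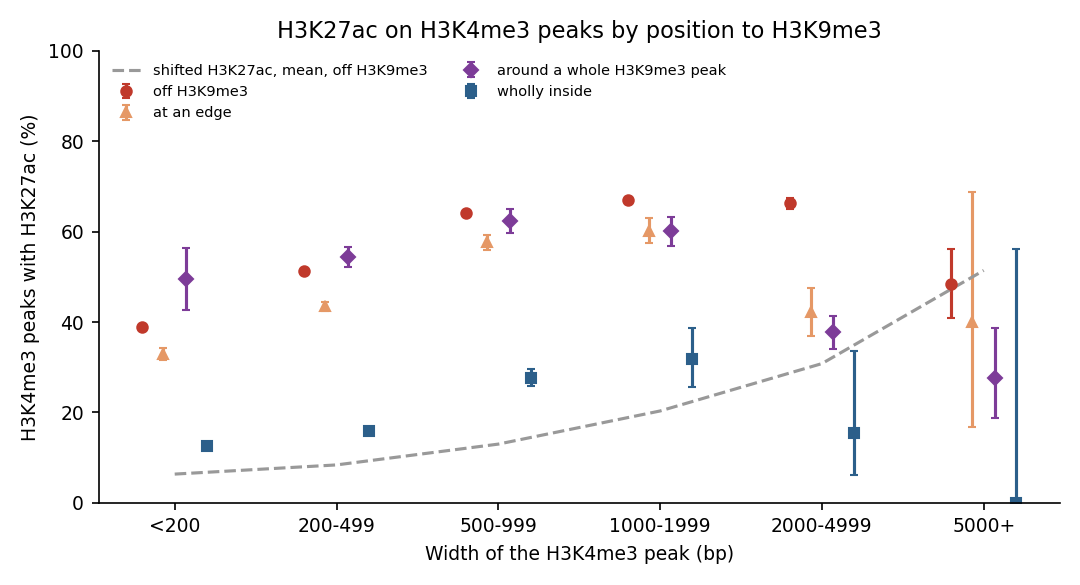
Percent of ESC H3K4me3 peaks with an H3K27ac peak (vertical) by width in bp (horizontal), for peaks off H3K9me3, at an edge of it, around a whole H3K9me3 peak, and wholly inside, with 95% Wilson intervals. The dashed line is the mean of 100 circular shifts of H3K27ac for peaks off H3K9me3. Peaks wholly inside are the lowest of the 4 positions at every width, though at 5000 bp or more only 3 peaks lie inside.

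Per base pair the same order held, at a smaller size. H3K27ac covered 33.3% of the sequence in H3K4me3 only, 19.6% of that in both marks, 1.73% of that in H3K9me3 only and 2.48% of the rest of the autosomes. H3K27me3 covered 16.9%, 14.2%, 1.59% and 1.25% of the same 4 kinds of sequence. Within H3K4me3 peaks that H3K9me3 covers in part the order was not kept. Over 23605 such peaks, with all widths pooled, H3K27ac covered 31.3% of the part in H3K9me3 and 20.5% of the part outside. Within each width class the parts lay closer together than in the pool. Under 200 bp they had 32.2% and 26.9%, at 200 to 500 bp 36.79% and 29.98%, and at 500 to 1000 bp 35.1% and 31.02%. At 1000 to 2000 bp the parts were alike, with 23.7% and 23.5%. Among the 10915 of these peaks that bore H3K27ac it was denser in the H3K9me3 part in 52.8% and denser outside in 33.6%. From 1000 bp up the count turned, with 54.3% denser outside at 1000 to 2000 bp and 57.2% at 2000 to 5000 bp. By base pairs the part in H3K9me3 still had no less H3K27ac there, 9.98% against 9.60% outside at 2000 to 5000 bp and 6.56% against 2.11% at 5000 bp or more. The count by peak sets parts of unequal length against each other.

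H3K9me3 peaks with H3K4me3 bore H3K27ac more often than those without, and less so the wider they were. The shares were 32.8% (32.4 to 33.3) and 6.98% (6.87 to 7.09), against 18.0% and 12.5% when H3K27ac was shifted, so that H3K9me3 without H3K4me3 stood at 0.560 times its shifted level. Under 500 bp, 42.4% of the H3K9me3 peaks with H3K4me3 bore H3K27ac, 5.20 times the shifted 8.15%. At 2000 to 5000 bp it was 19.9%, 0.617 times the shifted 32.2%, and at 10000 bp or more 9 of 114 peaks (7.89%, 4.21 to 14.3), 0.108 times. Without H3K4me3, 2 of 169 peaks of 10000 bp or more bore it (1.18%). Wide H3K9me3 peaks that hold H3K4me3 were thus still poor in H3K27ac. Strong H3K9me3 peaks with H3K4me3 bore H3K27ac in 18.6%, the weakest group in 45.8%.

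In iPSC, a readout not used to define the classes, H3K4me3 wholly inside H3K9me3 was found again less often than H3K4me3 off it. Of the ESC H3K4me3 peaks off H3K9me3, 75.5% overlapped an iPSC H3K4me3 peak. Of those at an edge 66.8% did, of those wholly inside 39.4%, and of the wider ones around a whole H3K9me3 peak 86.9%. Weighted over the combinations of width and strength the shares were 71.0% off and 52.4% on. An iPSC H3K9me3 peak overlapped 87.0% of the H3K4me3 peaks wholly inside ESC H3K9me3 and 3.05% of those off it. Of the ESC H3K9me3 peaks themselves, 70.3% with H3K4me3 and 61.5% without it overlapped an iPSC H3K9me3 peak. For H3K9me3 peaks of 2000 to 5000 bp these shares were 98.9% and 97.9%, so wide H3K9me3 was found again with or without H3K4me3. From 2000 bp up nearly all ESC H3K4me3 peaks were found in iPSC, 99.9% on and 99.98% off H3K9me3 at 2000 to 5000 bp.

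Chromosomes differed in the ratio of shared base pairs to the shifted level, 1.304 ± 0.2765 (SD, n = 20). Chromosome 5 had the highest, 1.90, followed by chromosomes 17 (1.74) and 12 (1.53). Chromosomes 19, 16 and 20 had the lowest, 0.674, 0.991 and 0.999, and were the 3 with a ratio below 1. On chromosome 19, H3K9me3 covered 10.96% of the H3K4me3 base pairs where the shifts gave 16.3%, the highest shifted level of all. On chromosome 5 it covered 15.9%, where the shifts gave 8.38%.

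Few wide H3K4me3 domains lay within H3K9me3, though no shifted level was computed for this count. Joining H3K4me3 peaks within 1 kb gave 192342 domains of any width, of which 24224 lay in H3K9me3 over at least 90% of their length. Domains of 5 kb or more numbered 3269. Of these, 27 lay in H3K9me3 over at least 90% of their length, and 2028 held no H3K9me3. H3K27ac was present on 6 of the 27 and on 1642 of the 2028, and H3K27me3 on 7 and on 1422. The widest of the 27 ran from 53254364 to 53290629 of chromosome 4 (36.3 kb, coordinates of the lists, for which the sources used here name no build). It was fully covered by H3K9me3, held 34.4 kb of H3K4me3 in 10 peaks with a highest fold enrichment of 5.41, and had neither H3K27ac nor H3K27me3. Next came 1290054 to 1315173 of chromosome 7 (25.1 kb, 21 H3K4me3 peaks, highest fold 4.25), where iPSC H3K4me3 covered 24.3% against 81.9% in ESC. The others, of 7.81 to 10.5 kb, lay at 132910034 to 132920524 of chromosome 11, 97425530 to 97435903 of chromosome 7 and 8333422 to 8341228 of chromosome 19. All 5 were free of H3K27ac in both cell types. The 5 widest domains without H3K9me3 spanned 29.85 to 37.6 kb, with H3K27me3 over 55.8 to 100% of their length and H3K4me3 peaks of up to 10.5 to 13.8 fold, and each bore some H3K27ac (0.405 to 13.3% of its length).

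The longest H3K9me3 domains differed widely in H3K4me3. The longest of all, 527.4 kb at 22056349 to 22583746 of chromosome 19, held 1.35 kb of H3K4me3 in 8 peaks and no H3K27ac. A 372.4 kb domain near the start of chromosome 12, at 189586 to 561953, held 43.8 kb in 83 peaks, the most of any domain, with H3K27me3 over 20.5% of its length. Intermediate amounts were found in a 408.1 kb domain at 124884116 to 125292197 of chromosome 9 (20.7 kb in 54 peaks) and, on chromosome 7, in 1 of 368.4 kb from 8246 to 376682 (10.5 kb in 22 peaks). Of the 4824 domains of 10 kb or more, 1209 held no H3K4me3. The longest of these was 284.5 kb, at 28821509 to 29106054 of chromosome 20, and iPSC H3K9me3 covered 74.7% of it. H3K27ac was found in 53.55% of the domains of 10 kb or more with H3K4me3 and in 23.08% of those without.

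Relative to the shifts, the overlap of these marks was modest beside that of H3K4me3 with Polycomb marking. By plain count it was not, since 18.8% of the H3K4me3 peaks overlapped H3K9me3 and 12.1% H3K27me3, against 12.6% and 3.06% when shifted. For H3K4me3 peaks under 2 kb, H3K9me3 covered 12.3% of the base pairs and H3K27me3 11.5%. In ESC, H3K27me3 covered 16.6% of the H3K4me3 base pairs, 7.39 times its shifted level, and 19.8 times for H3K4me3 peaks of 2 kb or more, where H3K9me3 stood at 0.3785 times. ESC H3K27ac peaks lay in H3K9me3 at 0.743 times the shifted level. In iPSC the H3K4me3 base pairs in H3K9me3 stood at 0.950 times the shifted level, within the range of single shifts (6.72% observed, 6.62 to 7.31% shifted), against 1.28 in ESC. For peaks under 2 kb the ratio was 1.03 in iPSC and 1.435 in ESC, and for those of 2 kb or more 0.439 and 0.3785. H3K27ac lay on 20.4% of the iPSC H3K4me3 peaks on H3K9me3 and on 34.5% of the others. With 1 list per cell type these differences between ESC and iPSC have no replicate check.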

How the data were processed

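All values come from 8 deposited peak lists, which hold 1 list of each mark per cell type. The tools named in the submitters' processing notes are deepTools, MACS2, Picard and SAMtools 1.10. Aligner, build, calling threshold and the pooling of libraries and inputs were not given in the sources used here. For every peak the authors deposited a fold enrichment (a ratio) and the −log10 of a q-value, which were used here to rank and filter within 1 list only. The lowest −log10 q was 1.301 in the ESC list of H3K4me3 and 1.0 in that of H3K9me3.

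Peaks on chromosomes 1 to 20 were taken as they stand, and no neighbours in a list overlapped. An overlap was at least 1 bp. For the shifted level, 1 list was moved along each chromosome, with wrap-around, by 100 evenly spaced distances. Chromosome length was the furthest end of any peak. H3K9me3 domains joined peaks within 3 kb and H3K4me3 domains within 1 kb. The interval arithmetic was tested on simulated data. Alternatives were firm peaks (−log10 q of at least 5 narrow, 2 broad), strict peaks (10 and 3), other overlaps, joins and edges, and leaving out chromosome 19. Named regions are the 5 widest, or those with most H3K4me3, of each kind, and the 3 chromosomes with the highest and lowest ratio. The members, classes and rules were chosen with earlier results of these data known. The gene table at hand (Panubis1.0) ended over 5 Mb from the furthest peak on 12 of 21 chromosomes, so no gene is named and no sequence is shown. Python 3.11.15, numpy 2.4.6, pandas 2.3.3, scipy 1.17.1 and matplotlib 3.10.9 were used.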

Additional observations from a re-analysis of the deposited data

How the results depend on the processing

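Of 37 alternatives over 7 results, 17 stayed within the interval of the value or 1 SD over chromosomes, 19 moved beyond it in the same direction and 1 reversed. The range for the edge ratio, 0.874 to 1.59, contains 1, so a loss of its whole excess would also count as staying. All alternatives of the edge ratio were counted so, among them 1.065 with H3K9me3 joined within 1 kb. Firm and strict peaks gave 14.7% and 8.99% for H3K4me3 on H3K9me3, 14.1% and 6.98% for H3K9me3 with H3K4me3, 20.3 and 12.9 points for the H3K27ac difference of H3K4me3, and 22.2 and 16.1 points for that of H3K9me3. Under strict peaks 48.9% of overlapping H3K4me3 lay wholly inside, no longer a majority, and the ratio of shared base pairs to the shifted level reversed to 0.725; the cause was not tested. A rule of 50% of the H3K4me3 peak gave 15.9%, 14.8%, 26.8 and 23.4 points in the same order. Counted in base pairs the H3K27ac differences were 14.3 and 4.09 points. Joining H3K9me3 within 3 and 10 kb put 74.7% and 92.4% wholly inside. Of the alternatives added after the data were examined, the strongest H3K9me3 peaks alone gave a ratio of 1.72, the weighting over width and strength 20.15 points, and the count inside H3K9me3 peaks an edge ratio of 1.16. No window of a fixed 100 kb grid was free of ESC peaks, so taking such windows out removed nothing. This alternative, counted among the 17, therefore only repeats the main value and is no check of it. No paired analysis was possible because each list pools all replicates of a mark, and for the same reason no replicate could be left out. The depth behind the lists is unknown, and with it how many weak peaks each list could hold.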
